A study of Caenorhabditis elegans with 2 samples.

Results

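Listed peaks of the nuclear hormone receptor NHR-76 were examined at 8 genes of the pathway by which neural serotonin, octopamine and the neuropeptide FLP-7 act through nhr-76 on the fat lipase gene atgl-1. The 8 genes, out of 19985 protein-coding genes in the annotation, were taken by name for their place in that pathway: nhr-76, atgl-1, tph-1, tbh-1, mod-1, ser-6, flp-7 and npr-22. The window of each gene was its annotated body plus 2 kb on each side, and every listed peak that overlapped it by 1 bp or more was counted.

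Binding was measured by chromatin immunoprecipitation and sequencing (ChIP-seq) in 1 group, mixed-sex embryos of mixed stages, as 2 biological replicates taken from whole animals. The strain was OP203, which carries the mutation unc-119(ed3) III and the integrated array wgIs203, from which NHR-76 is made with a GFP-FLAG tag at its C terminus. There was no second genotype or treatment, so each result is a description beside the same measure over all genes or all candidates, with no test between conditions. The array carries nhr-76 sequence of its own, so signal from it and from the native gene cannot be told apart at that locus. Peak lists hold no expression values, so neither the embryonic stage nor the tissues in which the tagged receptor was present could be checked.

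In C. elegans, serotonin and octopamine from a few neurons promote fat loss in the intestine, the animal's main fat store. The amines act on receptors in other neurons, the FLP-7 peptide is released into the body cavity, and its receptor NPR-22 in the intestine leads to induction of atgl-1, for which nhr-76 is needed. This order was worked out in grown animals, whereas the samples here were embryos.

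The lists came in 4 forms on the ce11 assembly. A pooled list of 30000 peaks and background regions, called candidates here, was made by the authors from both replicates together. The list of replicate 1 held 7516 peaks and that of replicate 2 held 30000. The authors' final list of 140 peaks kept those that passed their reproducibility procedure. The signal given for a peak is the authors' own value, on a scale that is not stated, and a rank of 1 is the highest signal within a list. The replicate lists stop at different depths: the lowest −log10 q-value was 2.62 in replicate 1 and 0.0594 in replicate 2, and 846 peaks of replicate 2 reached the lowest value of replicate 1. A gene missing from the list of replicate 1 was thus held to another standard than one missing from replicate 2.

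None of the 8 genes had a final peak in its window, a state shared by nearly all genes, since 1.22% of the protein-coding genes had one. The closest approach was at flp-7, where a final peak near puf-9 lay 44378 bp away, and the farthest was at atgl-1, at 813344 bp. The lowest signal on the final list was 19.98, and the highest at any of the 8 genes was 9.68, lower by a factor of 2.06. Pooled candidates, by contrast, were present at 7 of the 8 genes, all but npr-22, beside 86.1% of all protein-coding genes. Neither count stands apart from its background.

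Sequences of 101 bp around the summits of 5 pooled candidates are shown because they are the pair of strongest ones at the receptor's own gene, the one at the start of tbh-1, the stronger one at ser-6, and the one at mod-1, which holds a GATA site. All are on the plus strand of WBcel235 (ce11), from the RefSeq genome sequence, 5′ to 3′. Capitals mark the nuclear receptor half-site variant AAGTCA or the extended GATA site TGATAA, read on either strand (TTATCA is its reverse complement). AGGTCA, the half-site bound by many nuclear receptors, was in none of the 5. The candidates at atgl-1 are not shown, since they lie in the 3′ untranslated region of a neighbouring gene. The one shown at mod-1 also lies in a neighbouring gene, in an intron of frpr-11, and overlapped no peak of either replicate.

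nhr-76, downstream, rank 1193, chrIV:635597-635697: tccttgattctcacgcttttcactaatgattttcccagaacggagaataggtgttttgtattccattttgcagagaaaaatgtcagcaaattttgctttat
nhr-76, intron, rank 1356, chrIV:633474-633574: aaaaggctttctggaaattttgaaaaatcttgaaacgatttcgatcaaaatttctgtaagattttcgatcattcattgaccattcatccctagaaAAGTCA
tbh-1, first part of the gene, rank 3572, chrX:15504400-15504500: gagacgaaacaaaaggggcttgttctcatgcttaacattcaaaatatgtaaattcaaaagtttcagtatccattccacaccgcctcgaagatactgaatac
ser-6, upstream, rank 5096, chrIV:2958796-2958896: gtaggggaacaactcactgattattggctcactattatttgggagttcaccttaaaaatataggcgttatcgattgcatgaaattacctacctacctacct
mod-1, downstream, rank 25175, chrV:8908409-8908509: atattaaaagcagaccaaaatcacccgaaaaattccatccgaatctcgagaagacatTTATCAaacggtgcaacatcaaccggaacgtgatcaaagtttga

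The receptor gene nhr-76 (WBGene00015497, chromosome IV, 627537 to 633963, plus strand) had the strongest candidates of the 8. Signal from the array and from the native gene cannot be told apart here, which limits its comparison with the other genes. It held 4 pooled candidates in 2 separate regions. The first, at 633354 to 633693 with a signal of 9.36 (rank 1356 of 30000), had its summit in an intron 5987 bp downstream of the 5′ end of the gene, close to its 3′ end. The other 3 formed a chain beyond the gene, the middle one overlapping both others, with summits 1423, 1684 and 1887 bp past its 3′ end and signals of 3.46, 9.68 and 3.72. The middle one, at 635477 to 635816, was the strongest at any of the 8 genes (rank 1193, −log10 q of 2.02), against a −log10 q of 3.16 for all final peaks. No candidate lay near the 5′ end of nhr-76, and no other protein-coding gene had these 4 candidates in its window.

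The replicates placed signal at nhr-76 differently. Replicate 2 listed the intron site with a signal of 8.38 (rank 1386), and replicate 1 listed no peak there. Downstream of the gene replicate 1 listed 1 peak, with a signal of 2.88 (rank 3274 of 7516), and replicate 2 listed 2, with signals of 5.89 (rank 5034 of 30000) and 3.52 (rank 17336). The summit of replicate 1 lay 1465 bp past the 3′ end, and those of replicate 2 lay 1760 and 1969 bp past it. The strongest candidate thus overlapped a peak of both lists, but the stronger intron site of replicate 2 had no counterpart. Of all protein-coding genes, 8.80% had a pooled candidate as strong as the best at nhr-76, 21.7% had as strong a peak in replicate 1 and 10.1% in replicate 2.

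**Figure D1:**
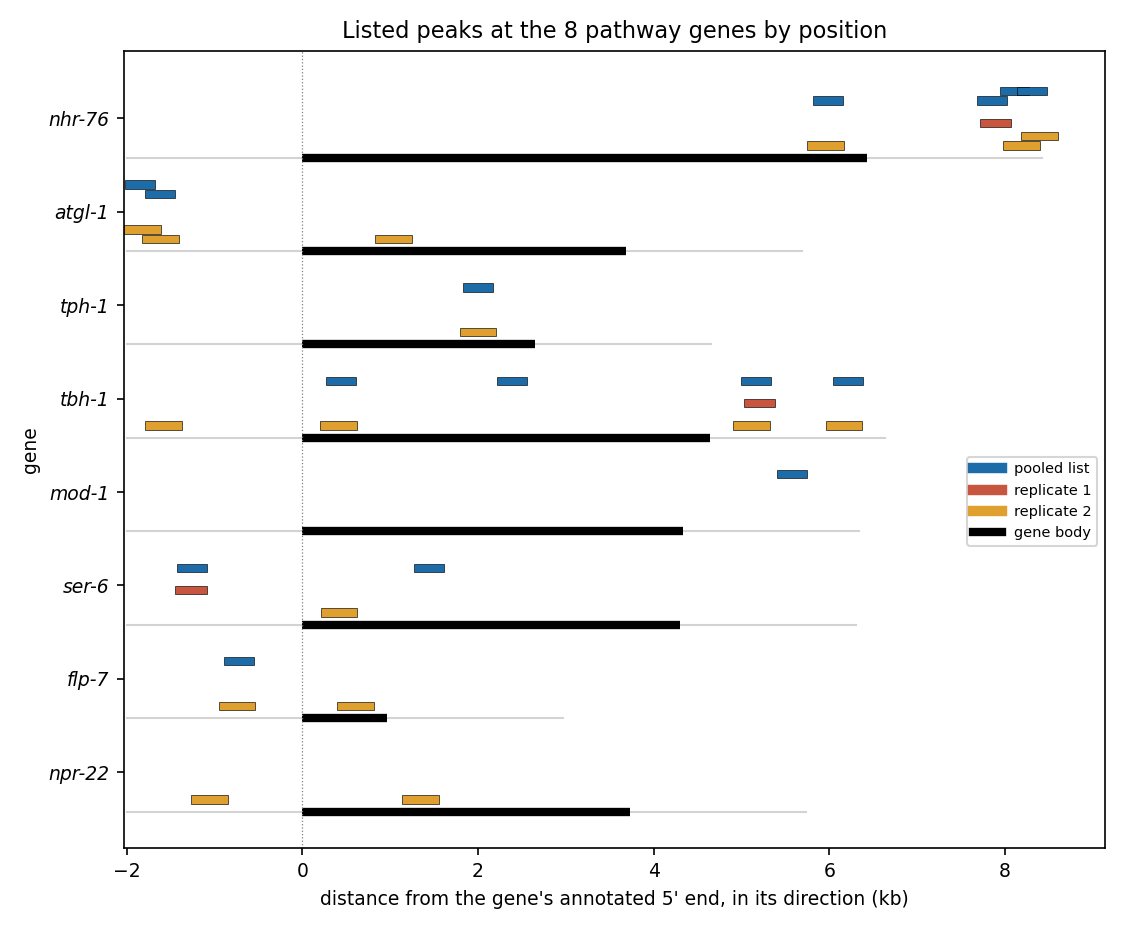
Positions of listed peaks at the 8 genes. The horizontal axis is the distance from the annotated 5′ end in kb, in the direction of the gene, each row is a gene, black bars are gene bodies, grey lines the windows, and coloured bars the peaks of the pooled list and of replicates 1 and 2. Replicate 1 has a peak at 3 genes, and at nhr-76 the candidates lie in the 3′ part of the gene and beyond it.

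The lipase gene atgl-1 (WBGene00015484, chromosome III, 6415772 to 6419459, minus strand), the worm adipose triglyceride lipase and the end point of the pathway, had no pooled candidate within its own body. Its 2 pooled candidates, at 6420903 to 6421242 (signal 5.13, rank 10158) and 6421137 to 6421476 (signal 6.18, rank 6006), overlapped each other with summits 1614 and 1848 bp upstream of its 5′ end. Both summits fell in the 3′ untranslated region of C05D11.8, the next gene upstream on the same strand, although atgl-1 was the gene with the nearest 5′ end. Replicate 2 listed the same 2 places with signals of 5.02 (rank 7946) and 2.46 (rank 28621), so that the weaker of the pooled candidates was the stronger in replicate 2. It also listed a peak of signal 2.62 (rank 26641) in a coding exon of atgl-1, which the pooled list did not hold. Replicate 1 listed no peak in the window. A candidate as strong as the best at atgl-1 was present at 34.7% of all protein-coding genes.

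Of the genes for amine synthesis, tbh-1 had more candidates in its window than tph-1, and its strongest had a higher signal. Its candidates of 4.75 and 2.99 were weaker than the 1 at tph-1 (5.12). The tbh-1 window was also longer, 8640 bp against 6649 bp. The gene tbh-1 (WBGene00006541, chromosome X, 15500256 to 15504895, minus strand) encodes tyramine beta-hydroxylase, which makes octopamine, and its 4 pooled candidates were in 4 separate places. The strongest, with a signal of 7.93 (rank 2601), was at 15498509 to 15498848, in the 3′ untranslated region of the neighbouring gene suox-1, 1577 bp past the 3′ end of tbh-1. The next, with 7.25 (rank 3572), was at 15504280 to 15504619, in a coding exon of tbh-1. Its summit was 445 bp downstream of the outermost 5′ end of tbh-1 and 72 bp downstream of the nearest start of an annotated tbh-1 transcript, the 1 summit of all 15 that lay within 500 bp of any protein-coding 5′ end. The gene H13N06.7 overlaps tbh-1 there. The other 2 had signals of 4.75 (rank 12187, in a suox-1 exon) and 2.99 (rank 27932, in a tbh-1 intron).

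Replicate 2 gave its highest rank within the pathway's amine genes to the site at the start of tbh-1, with a signal of 7.004 (rank 2785), and replicate 1 listed no peak there. The site where both replicates agreed on position was the weaker one in the suox-1 exon, with summits 5205 bp (replicate 1) and 5116 bp (replicate 2) downstream of the 5′ end of tbh-1, around the pooled summit at 5162 bp. Its ranks were low in each list, 5956 of 7516 with a signal of 2.25 in replicate 1 and 25200 of 30000 with 2.74 in replicate 2. Replicate 2 listed the suox-1 site past it with 4.25 (rank 11968) and a further peak in zipt-7.2 with 2.43 (rank 29093). A candidate as strong as the best at tbh-1 was present at 17.6% of all protein-coding genes.

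The gene tph-1 (WBGene00006600, chromosome II, 7549335 to 7551983, plus strand) encodes tryptophan hydroxylase, the enzyme that commits tryptophan to serotonin. It had 1 pooled candidate, at 7551166 to 7551505 with a signal of 5.12 (rank 10202), in a coding exon 2001 bp downstream of its 5′ end. Replicate 2 listed a peak with the same summit, of signal 4.82 (rank 8830), and replicate 1 listed none. This level is close to the middle of all genes, since 50.3% had a candidate as strong. A piRNA gene, 21ur-14885, and the ncRNA gene ZK1290.19 lay within 500 bp of the summit. At none of the other 14 candidates was an annotated noncoding gene that near.

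Of the amine receptors, ser-6 had the stronger pooled candidate and a peak in each replicate, and mod-1 had the weaker candidate and no replicate peak. The gene ser-6 (WBGene00021897, chromosome IV, 2960098 to 2964401, plus strand) encodes an octopamine receptor of the G protein-coupled class. Its stronger candidate, at 2958676 to 2959015 with a signal of 6.52 (rank 5096), had its summit 1252 bp upstream of the 5′ end, in intergenic sequence. Replicate 1 listed this site with a signal of 4.52 and rank 742 of 7516, its highest rank at any of the 8 genes, and replicate 2 listed no peak there. The 5.55% of protein-coding genes with as strong a peak in replicate 1 make it the highest placed of the 8 genes in that list. Replicate 2 instead listed a peak 419 bp downstream of the 5′ end, in an intron, with a signal of 3.70 (rank 15862). The second pooled candidate, in an intron with 3.34 (rank 23738), overlapped no peak of either replicate. In the pooled list 30.7% of all protein-coding genes had a candidate as strong as the best at ser-6.

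The gene mod-1 (WBGene00003386, chromosome V, 8909704 to 8914040, minus strand) encodes a serotonin-gated chloride channel. Its 1 pooled candidate, at 8908289 to 8908628, had a signal of 3.21 (rank 25175) and lay in an intron of the neighbouring gene frpr-11, 1245 bp past the 3′ end of mod-1. Neither replicate listed a peak anywhere in the mod-1 window, the only one of the 8 windows of which this was true. A candidate as strong was present at 81.0% of protein-coding genes.

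The gene flp-7 (WBGene00001450, chromosome X, 5885865 to 5886833, plus strand) encodes the FLP-7 precursor, and its 1 pooled candidate, at 5884971 to 5885310 with a signal of 3.37 (rank 23464), had its summit 724 bp upstream of the 5′ end. Replicate 2 listed a peak there with a signal of 2.68 (rank 25871) and another in an intron of flp-7 with 3.99 (rank 13657), while replicate 1 listed none. As strong a candidate was present at 79.0% of protein-coding genes. The gene npr-22 (WBGene00022004, chromosome IV, 8559432 to 8563161, plus strand) encodes the receptor of FLP-7, related to tachykinin receptors. It had no pooled candidate and no peak of replicate 1. Replicate 2 listed 2 peaks there, with signals of 2.69 (rank 25809), 1055 bp upstream of the 5′ end, and 3.50 (rank 17435), in a coding exon.

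**Figure D2:**
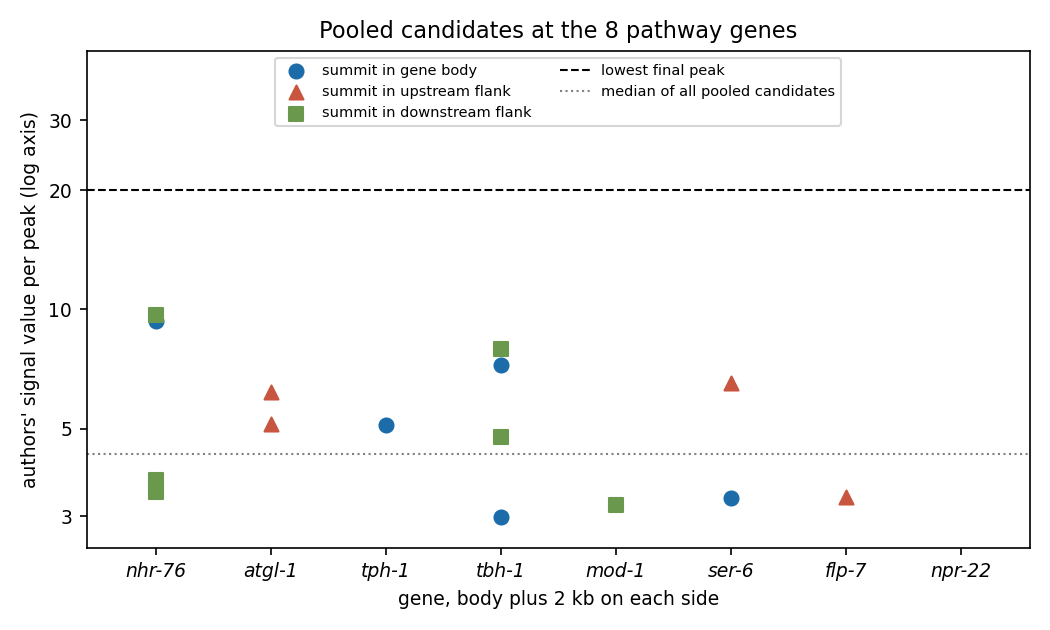
Signal of each of the 15 pooled candidates by gene, on a log axis; symbols give where the summit lay relative to the gene. All 15 lie between 2.99 and 9.68, below the lowest final peak at 19.98 (dashed line); the dotted line is the median of all pooled candidates, 4.31, and npr-22 has none.

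Ordered by their strongest pooled candidate, the genes ran from nhr-76 (signal 9.68) through tbh-1 (7.93), ser-6 (6.52), atgl-1 (6.18), tph-1 (5.12), flp-7 (3.37) and mod-1 (3.21) to npr-22, with none. This order depends on the flank: with 1 kb on each side ser-6 had 3.34, just under flp-7 (3.37), and atgl-1 and mod-1 had no candidate. The place of nhr-76 carries the limit that array and native signal cannot be told apart there. The pooled list gives no error for a signal, and the replicates did not repeat this order. In replicate 2 the order was nhr-76 (8.38), tbh-1 (7.004), atgl-1 (5.02), tph-1 (4.82), flp-7 (3.99), ser-6 (3.70) and npr-22 (3.50). In replicate 1 it was ser-6 (4.52), nhr-76 (2.88) and tbh-1 (2.25). Both lists held a peak in 3 of the 8 windows, and the order of those 3 differed between them, with ser-6 first in replicate 1 and last in replicate 2. Of the 7 genes with a candidate, tph-1 alone had its strongest one with the summit inside its own body.

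**Figure D3:**
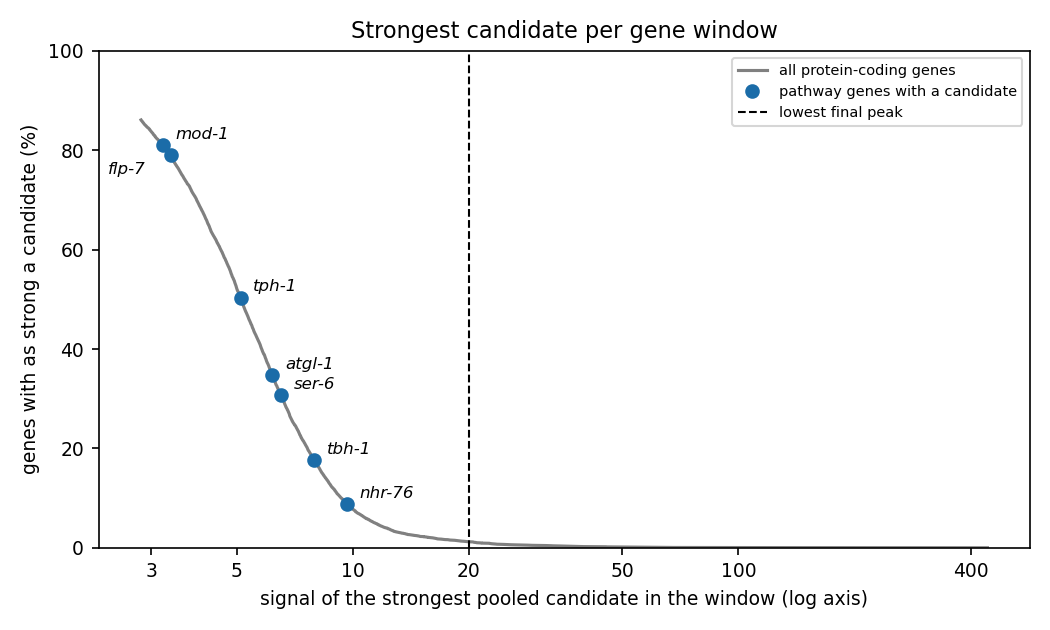
Strongest pooled candidate of each gene window against the percentage of all protein-coding genes with one as strong. The horizontal axis is signal on a log scale, the grey line all 19985 genes the points the 7 pathway genes with a candidate, from 8.80% at nhr-76 to 81.0% at mod-1, and the dashed line the lowest final peak.

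The counts of genes were then read against all protein-coding genes, whose windows were shorter, with a median of 8017 bp for the 8 genes and 6026 bp for all. The part of window length in these counts was not tested. A candidate among the 3000 strongest of the pooled list was present at 2 of the 8 genes, nhr-76 and tbh-1, beside 19.9% of all genes. Replicate 1 listed a peak at 3 of the 8 (41.6% of all genes) and replicate 2 at 7 of the 8 (85.4%). A pooled candidate that overlapped a peak of both replicates was present at 2 of the 8, again nhr-76 and tbh-1 (16.7%). In each case 1 gene more or fewer would bring the count to or past its background share, so none of these counts is a result about the pathway. When the list of replicate 2 was cut to its 7516 strongest peaks (an alternative added once the data had been seen), it held a peak at 2 of the 8 genes, nhr-76 and tbh-1, beside 41.4% of all genes. The weakest peak kept there had a −log10 q of 0.718, still below the 2.62 of replicate 1. Among peaks of replicate 2 that reached 2.62 (likewise added), 0 of the 8 genes had one, beside 6.32% of all genes, and the highest −log10 q of replicate 2 at any of the 8 was 2.01.

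**Figure D4:**
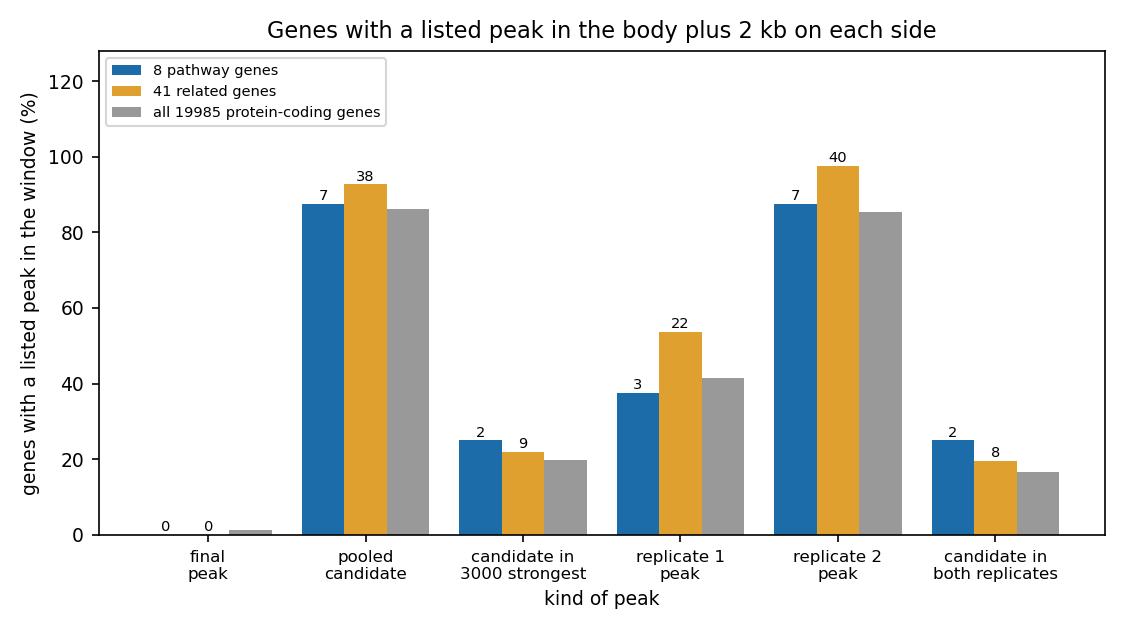
Percentage of genes with a listed peak in the window, for the 8 pathway genes, 41 related genes and all 19985 protein-coding genes, by kind of peak; numbers over bars are gene counts. The final list has none in either set and 1.22% of all genes, and the pathway counts of 7, 2, 3, 7 and 2 stand near the grey bars.

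The 15 candidates were also compared with all 29979 nuclear candidates in what they share. They lay at 0.239 per kb of the pathway windows, against 0.331 per kb over the windows of all protein-coding genes. The latter counts a candidate once for each window that it overlaps, and the difference was not tested. Within the pathway windows 5 summits lay in gene bodies (0.163 per kb) and 10 in the flanks (0.312 per kb). The same split over all protein-coding genes is not given here, so these 2 densities have no background beside them. Some flank summits lay in the neighbouring genes C05D11.8, suox-1 and frpr-11, and those past nhr-76 came from candidates that overlapped in a chain. Signals of the 15 candidates had a median of 5.12, against 4.31 for the whole pooled list. Among them 4 of 15 overlapped a peak of replicate 1, beside 16.7% of all nuclear candidates, 11 a peak of replicate 2 (69.2%), 3 a peak of both (9.25%) and 3 a peak of neither (23.4%). A pair of overlapping candidates past nhr-76 touched the same peak of replicate 1. They count as 2 for replicate 1 and again for both replicates. Replicate 1 listed only 3 peaks in the 8 windows, and these shares were not tested. Summits lay in coding exons for 3 of 15 (29.7% of all), in 3′ untranslated regions for 3 (3.39%), in introns for 4 (29.5%), in intergenic sequence for 5 (34.9%) and in 5′ untranslated regions for 0 (2.54%). The 3 in untranslated regions were the pair next to atgl-1, in C05D11.8, and the one next to tbh-1, in suox-1. A protein-coding 5′ end lay within 500 bp of 1 of the 15, beside 27.8% of all nuclear candidates.

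In sequence, none of the 15 held AGGTCA within 100 bp of the summit on either strand, a motif in 5.55% of all nuclear candidates. AAGTCA was in 1, the intron candidate of nhr-76 printed above (9.39% of all). TGATAA, the extended site of the GATA factors that specify the intestine, was in 6 of 15, beside 16.8% of all nuclear candidates: both at atgl-1, and 1 each at nhr-76, tph-1, mod-1 and ser-6. AGGTCA and AAGTCA differ by 1 letter, and each was counted only where all its letters were present. A match is only the presence of these letters. The candidates at atgl-1 with TGATAA overlapped each other, and those at mod-1 and ser-6 overlapped no peak of either replicate. The motif shares were not tested. The median GC content of the windows was 36.8% in the 15 and 38.3% in all nuclear candidates. Runs of 36 bases were unique in the genome for 98.0% or more of positions in each of the 15 candidates. Bases that the RefSeq sequence soft-masks as repeats or low complexity averaged 32.8% of the 15, against 26.7% of all nuclear candidates, and 14 of the 15 held some. At nhr-76 they made up 67.9% of the strongest candidate, 49.1% of the intron one, and 43.8% and 84.7% of the other pair. The part of masked sequence in these signals was not tested.

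Related genes of the same pathways, 41 in all and listed by role, likewise had no final peak (1.22% of all genes). A pooled candidate was present at 38 of them (86.1% of all genes). Of the 41, 9 had a candidate among the 3000 strongest (19.9%) and 22 a peak of replicate 1 (41.6%). A peak of replicate 2 was present at 40 (85.4%), and a candidate listed in both replicates at 8 (16.7%). The windows of the 41 had a median of 8577 bp, longer than those of the 8 genes and of all protein-coding genes. The part of window length in these counts was not tested. The median of the strongest signal per gene was 5.65 in the 8 pathway genes, 6.04 in the 41 related genes and 5.13 in all protein-coding genes, with genes lacking a candidate counted as 0.

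Among the related genes, the candidates at gcy-35 and near lipl-2 came close to the lowest final signal of 19.98 without entering the final list. The others were well below it. At gcy-35, a soluble guanylate cyclase of the oxygen-sensing neurons, a candidate of signal 19.0 ranked 156, in an intron of gcy-35 and 27 bp upstream of the 5′ end of T04D3.5. Near lipl-2, a lysosomal-type lipase gene, one of 18.0 ranked 175, but it lay 225 bp upstream of the 5′ end of ztf-7 and 1635 bp upstream of that of lipl-2. The FOXO factor gene daf-16 followed with 11.9 (rank 532), in an intron, and cat-1, the vesicular monoamine transporter gene, with 11.5 (rank 612), also in an intron. The best peak in the cat-1 window ranked 87 in replicate 1 and 16220 in replicate 2. The candidate of nhr-49, a nuclear receptor gene of fat metabolism, had 10.9 (rank 751) and its summit 7 bp downstream of an nhr-49 transcript start. The others were unc-31 (9.78, rank 1142), ser-2 (8.19, rank 2309), ser-3 (8.10, rank 2406) and lipl-5 (7.80, rank 2787), all in introns, that of ser-3 in an intron of teg-4. Of the candidates named here, only those of cat-1 and lipl-2 overlapped a peak of both replicates. The rest overlapped a peak of replicate 2 alone.

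By role, candidates among the 3000 strongest were at 1 of 5 genes of amine synthesis and transport (cat-1) and at 0 of 5 other serotonin receptors. They were at 2 of 6 octopamine and tyramine receptors (ser-2 and ser-3) and at 1 of 6 genes of peptide processing and tachykinin-type receptors (unc-31). Sensory and insulin feedback genes gave 2 of 5 (gcy-35 and daf-16), and genes of intestinal fat breakdown gave 3 of 14 (lipl-2, lipl-5 and nhr-49). Of all protein-coding genes 19.9% had such a candidate. The roles held only 5 to 14 genes each, so no difference between them is read as a result.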

How the data were processed

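Peak lists of NHR-76 ChIP-seq in 2 replicates of embryos were used as deposited. Per the samples' README texts, the authors made 1 list per replicate and 1 from the pooled alignments, each with 1 further file from which the control-normalized signal also derives, and obtained the final list from these 3. For aligner, peak caller and threshold, the value is not given in the sources used here. The deposited signal (column 7) has no stated scale, and the deposited −log10 q-value (column 9) follows the narrowPeak format. Depth is unknown, since the lists hold no read numbers. The ce10 lists were not used. Positions, counted from 1, were placed on ce11 (WBcel235) with the Ensembl release 115 annotation and RefSeq sequence, in Python 3.11.15.

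Ranks are 1 plus the number of higher signals in a list. A summit in several annotated classes was put in one, untranslated and coding sequence ahead of introns. Counting was checked on simulated peaks. Named were all 8 genes, the gene with the nearest 5′ end or overlapping a summit, and related genes with a candidate among the 3000 strongest. The genes and lists were chosen with earlier results of these data known. No test was run, as there is 1 group.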

Additional observations from a re-analysis of the deposited data

How the results depend on the processing

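The count of pathway genes with a final peak was 0 of 8 under each alternative tried: gene bodies alone, 1 kb or 5 kb on each side, summits in place of overlap, and the 70 strongest final peaks. Counting by summit, or with 5 kb on each side, kept the other counts within 1.5 times of theirs. With gene bodies alone, 4 genes had a pooled candidate, 1 had one among the 3000 strongest, 0 had a peak of replicate 1 and 0 had a candidate listed in both replicates. With 1 kb on each side the last 3 counts were 1, 1 and 1. Among the 1500 strongest candidates 1 gene remained, nhr-76. With summits within 100 bp as the rule for a shared site, the count was 1, at tbh-1. A shorter window or a stricter rule can only lower the count of any set of genes. Shares over all protein-coding genes at these settings are not given here, so these lower counts are no result about the pathway. Cutting replicate 2 to the length of replicate 1, gave 2, and keeping only its peaks at or above the lowest −log10 q of replicate 1 gave 0, both added once the data had been seen.

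With 1 replicate's own list in place of the pooled one, the count of genes with a peak ran from 3 without replicate 2 to 7 without replicate 1, that of genes with one among the 3000 strongest from 1 to 2, and peaks per kb from 0.0478 to 0.255. The list of replicate 1 is shorter and stops at a higher −log10 q. Its 3000 strongest are a larger part of its 7516 peaks than those of replicate 2 are of 30000. The gene counted there was ser-6 (rank 742) in replicate 1, and nhr-76 (rank 1386) and tbh-1 (rank 2785) in replicate 2. Background values for these 3000 strongest and for these peaks per kb are not given here, so they are no result about the pathway. The strongest signal per gene was the same or within 1 SD of the replicates in 23 alternatives and beyond that in 9, where any change counted if fewer than 2 replicates listed a peak. Alternatives that left a gene with no peak were not in this tally, so it overstates how steady the signals were. The SD is also no error of the pooled signal, since the strongest peaks of the replicates can lie at different places, as at ser-6. It further spans lists that differ in level on an unstated scale, with median signals of 2.74 in replicate 1 and 3.81 in replicate 2. With gene bodies alone or 1 kb on each side, the value for ser-6 was 3.34 in place of 6.52, and atgl-1 and mod-1 had no candidate; nor had flp-7 with gene bodies alone. No paired analysis was possible because there is 1 group. The limit throughout is that depth is unknown and a pooled signal has no error.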
